A study of Danio rerio with 9 samples.

Results

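These results describe 43 zebrafish (Danio rerio) genes whose RNA was present in unlabelled libraries of embryos at the 128-cell to 512-cell stages. Their level in the labelled libraries was several-fold higher at the 512-cell stage than at the 128-cell stage. These genes were found among the 8969 genes of a table with 1 FPKM value per library. FPKM is a fragment count scaled by transcript length and by the size of the library, so it compares levels per length. Of 7632 gene IDs below ENSDARG00000080000, 5062 had a mean of at least 1 FPKM over the 3 unlabelled libraries and are called maternally present here. Of these, 49 (0.968%) had at least 3 times the 128-cell FPKM at the 512-cell stage in both labelled replicates. The rule leaves out 6 of the 49 by symbol (rpl7a, RPL29, RPL39, hnrnpa0b, h3f3a and tdgf1).

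All embryos were AB strain and wild-type. The labelled groups came from the 128-cell, 256-cell and 512-cell stages of embryos that had received 4-thio-UTP (a 50 mM solution, 1 nl per embryo) by injection as zygotes, and each has 2 libraries that the labels call technical replicates. The unlabelled groups came from the same 3 stages with 1 library each, and their RNA went through the same biotin and streptavidin purification. The same injection protocol stands in the labels of all 9 libraries, and neither a mock injection of the unlabelled embryos nor the number of pooled embryos is stated. Because the replicates are technical, p-values measure technical spread alone.

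The early zebrafish embryo runs on RNA and protein that the mother stored in the egg, and its own genome is switched on during the cleavage and blastula stages. A gene can belong to both phases: its RNA is stored in the egg and is made again by the embryo, and an assay of total RNA sees the sum of the stored and the new copies. The analogue 4-thio-UTP is built into RNA as it is transcribed, so that new copies can be pulled out of the stored pool. Unlabelled libraries show which RNAs the beads carry over without any label. Labelled libraries went through the same purification and can hold such RNA beside new copies. Labelled FPKM and its stage ratios are thus not a measure of new RNA alone. The unlabelled libraries do not tell stored from new copies, so maternally present is a name for the unlabelled limit and not evidence of storage.

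Library depth is unknown because no read counts were used. Over all genes, the median FPKM ranged over the labelled libraries from 1.42 to 3.21, with replicate 1 above replicate 2 at each stage, and over the unlabelled libraries from 0.836 to 2.52. Median-of-ratios size factors, which rescale libraries to a common level, ranged from 0.725 to 1.699 in labelled and from 0.466 to 1.46 in unlabelled libraries. The marker lists were chosen with earlier results of these data known, so they describe the libraries and are no independent check of the tissue label. Of 25 listed maternal mRNAs, 24 had a mean of at least 1 FPKM in unlabelled libraries. Of 24 early zygotic genes 0 had that unlabelled mean, while 24 had a mean of at least 1 FPKM in labelled 512-cell libraries. The single differentiated-tissue gene in the table, the muscle actin gene actc1a, did not reach that unlabelled mean. In labelled 512-cell libraries actc1a did reach a mean of at least 1 FPKM, at 3.35 and 1.09 FPKM, as the early zygotic genes did. The libraries are of whole embryos, so more transcribing cells and more new RNA per cell cannot be told apart.

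The members were selected on the labelled 128-cell and 512-cell FPKM values and the unlabelled mean, so the differences between those stages are given without a test. The ratio of 512-cell to 128-cell FPKM had a median of 7.40 in replicate 1, with a range of 3.11 to 98.6. In replicate 2 the median was 5.07, and the range 3.11 to 74.0 leaves out ENSDARG00000039642, which was listed at 0 at 128-cell in that replicate. In labelled 128-cell RNA 36 of 43 members had at least 1 FPKM in replicate 1 and 29 in replicate 2. Of 5062 maternally present genes, 4856 and 4618 did. The ratios of the other members, COX5B, map2k4b, NOCT and lmo4a among them, thus rest on a 128-cell value below 1 FPKM in at least 1 replicate. Over all maternally present genes the median ratio was 0.985 in replicate 1 and 0.763 in replicate 2, so their labelled FPKM was about level or lower at the later stage. The opposite pattern, a 128-cell FPKM at least 3 times the 512-cell FPKM in both replicates, was met by 8 maternally present genes (0.158%). Both 512-cell libraries lay above both 128-cell libraries in 41 of the 43 genes, against 4.98% of maternally present genes, a count that the rule itself drives.

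The nearest genes on either side of the 3-fold limit had much the same ratio. Just inside it, the lower of the 2 replicate ratios was 3.11 for ENSDARG00000035423, 3.11 for ENSDARG00000039641 and 3.15 for acin1b. Just outside it, the lower ratio was 2.97 for ENSDARG00000018308, 2.94 for cirbpb, 2.91 for C2H7orf25 and 2.89 for DOP1A. The cold-inducible RNA-binding gene cirbpb is the abundant one of these, at 93.8 and 55.9 FPKM in the labelled 128-cell replicates and 342 and 164 FPKM in the labelled 512-cell replicates.

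**Figure D1:**
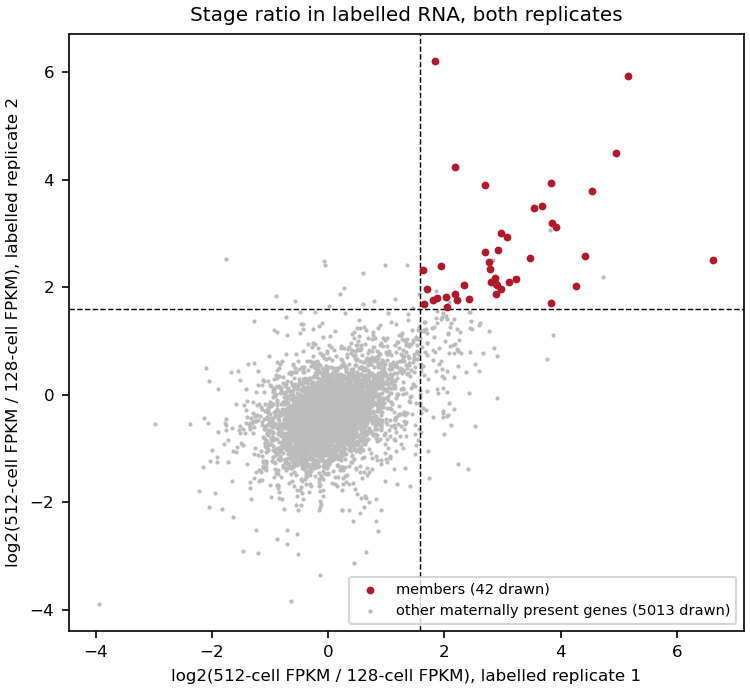
Log2 ratio of 512-cell to 128-cell FPKM in labelled replicate 1 (x axis) and labelled replicate 2 (y axis) for 5055 maternally present genes with values above 0, with the 42 drawn members in red and dashed lines at the 3-fold limit (1.58 on the log2 scale). Most grey points sit around or below 0, and the members fill the upper right corner because the rule takes them from there. Grey points in that corner are genes left out by symbol.

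Of the members, 5 encode transcription factors or their partners, a grouping made after their values were seen. mycla (ENSDARG00000006003), a Myc-family factor, had the highest unlabelled level of the members. Its level in the labelled replicates was 213 and 66.9 FPKM at 128-cell, 433 and 80.0 FPKM at 256-cell and 965 and 246 FPKM at 512-cell, against 74.1, 41.3 and 31.2 FPKM in the unlabelled libraries in stage order. The labelled values of mycla increased by stage in each replicate while the unlabelled ones decreased, and at 128-cell replicate 1 lay above the unlabelled library and replicate 2 below it. Without label, 98.6% of maternally present genes were lower at 512-cell than at 128-cell on this scale. The percentile of mycla among all genes of the unlabelled libraries was 98.3, 98.2 and 98.0 in stage order. snai1a (ENSDARG00000056995) encodes a Snail zinc-finger repressor, known for cell movements in which epithelial cells lose contact. Labelled snai1a RNA was at 11.99 and 7.86 FPKM at 128-cell, 23.1 and 8.03 FPKM at 256-cell and 104 and 33.7 FPKM at 512-cell, against 16.2, 7.42 and 6.72 FPKM unlabelled. Most of the snai1a difference lay after the 256-cell stage, where replicate 2 was still close to its 128-cell value. ID3 (ENSDARG00000054823) encodes a helix-loop-helix protein that binds partner factors and keeps them off DNA. Labelled ID3 RNA was at 9.49 and 2.60 FPKM at 128-cell, 13.9 and 3.60 FPKM at 256-cell and 34.6 and 9.01 FPKM at 512-cell, against 5.13, 0.722 and 0.480 FPKM unlabelled. Of these factors, ID3 had the lowest unlabelled ratio of 512-cell to 128-cell FPKM, 0.0936. lmo4a (ENSDARG00000013853), a LIM-only cofactor gene, had 3.93 and 0.867 FPKM at 128-cell and 30.9 and 7.0 FPKM at 512-cell in labelled RNA. In znfl2a (ENSDARG00000008333), a zinc-finger gene, the replicates parted at 256-cell, at 11.7 and 1.20 FPKM, and were at 18.2 and 4.80 FPKM at 512-cell in labelled RNA.

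Another 4 members act on chromatin. hmga1a (ENSDARG00000028335) encodes an AT-hook protein that binds the minor groove of DNA. Labelled hmga1a RNA was at 66.6 and 38.2 FPKM at 128-cell, 150 and 54.4 FPKM at 256-cell and 357 and 132 FPKM at 512-cell, against 69.4, 41.1 and 20.6 FPKM unlabelled. At 128-cell the labelled hmga1a libraries did not exceed the unlabelled one, and at 512-cell both lay above all 3 unlabelled values. BRD2 (ENSDARG00000022280) encodes a bromodomain protein that reads acetylated histones. Labelled BRD2 RNA was at 8.62 and 7.04 FPKM at 128-cell, 75.7 and 25.6 FPKM at 256-cell and 131 and 61.2 FPKM at 512-cell, against 13.6, 9.59 and 7.5 FPKM unlabelled. BRD2 started below the unlabelled level in both replicates and was above it at 256-cell already. ANP32A (ENSDARG00000006487), a gene of an acidic nuclear protein linked to histones, had 4.70 and 2.38 FPKM at 128-cell and 35.8 and 15.4 FPKM at 512-cell in labelled RNA. For the linker histone gene h1l1 (ENSDARG00000074012) the replicates were far apart at 128-cell, at 0.267 and 2.44 FPKM, and closer at 512-cell, at 26.3 and 13.9 FPKM. Its ratio of 98.6 in replicate 1 therefore rests on a 128-cell value below 1 FPKM, and the ratio was 5.70 in replicate 2.

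RNA processing was the largest named group, with 7 members. srsf5a (ENSDARG00000029818) encodes an SR protein, one of the serine- and arginine-rich factors that guide splice site choice. Labelled srsf5a RNA was at 22.9 and 9.43 FPKM at 128-cell, 73.4 and 20.4 FPKM at 256-cell and 294 and 107 FPKM at 512-cell, against 4.50, 1.63 and 2.57 FPKM unlabelled. Both labelled srsf5a libraries exceeded the unlabelled one at each stage, 128-cell included. DDX5 (ENSDARG00000038068) encodes an RNA helicase of splicing and transcription. Labelled DDX5 RNA was at 17.6 and 9.71 FPKM at 128-cell, 53.9 and 20.9 FPKM at 256-cell and 129 and 43.8 FPKM at 512-cell, against 9.73, 6.37 and 4.95 FPKM unlabelled. ccnl1b (ENSDARG00000012140), a cyclin L gene whose protein is tied to pre-mRNA splicing, had 4.65 and 4.88 FPKM at 128-cell, 15.2 and 10.6 FPKM at 256-cell and 36.7 and 19.2 FPKM at 512-cell in labelled RNA, against 5.85, 2.89 and 1.99 FPKM unlabelled. Both labelled ccnl1b libraries lay below the unlabelled one at 128-cell and above it at the later stages. acin1b (ENSDARG00000026842), which encodes an Acinus protein of the splicing-dependent complexes, had the highest unlabelled level of the group, at 20.2, 10.4 and 6.72 FPKM. In labelled RNA acin1b had 14.03 and 6.26 FPKM at 128-cell and 44.2 and 20.3 FPKM at 512-cell. The other 3 of the group were lower: the splicing coactivator gene RBM39 (ENSDARG00000011613), rbmx (ENSDARG00000014244), of an RNA-binding protein of nascent transcripts, and the arginine- and serine-rich gene rsrp1 (ENSDARG00000030440). Their labelled 512-cell values lay between 3.93 FPKM (rbmx, replicate 2) and 14.5 FPKM (RBM39, replicate 1).

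The other genes of splicing and RNA binding were taken from a list of name families that holds 148 genes of the table, 116 of them maternally present. Of these 116, 5 (4.31%) met the 3-fold rule in both replicates, namely RBM39, rbmx, srsf5a, DDX5 and the left-out hnrnpa0b. The median log2 ratio of 512-cell to 128-cell over the 116 genes was 0.23 in replicate 1 and -0.14 in replicate 2, so the typical gene of the list did not share the several-fold difference. Another SR protein gene, SRSF3, had 29.6 and 10.6 FPKM at 128-cell and 51.0 and 16.7 FPKM at 512-cell in labelled RNA. The further lists also go by symbol and differ from the roles given to the members. BRD2, described above with the chromatin members, falls in the RNA polymerase II list. The members acin1b, ccnl1b, rsrp1, PNRC2, NOCT, snai1a, lmo4a, ANP32A, h1l1, shisa2a and AMOTL2 are not among the listed genes that met the rule. By these lists, the rule was met by 1 of 44 translation factor genes (eef1a1l1) and 1 of 63 chromatin regulators (hmga1a). It was met by 1 of 45 genes listed as general factors of RNA polymerase II (BRD2). It was also met by 3 of 92 sequence-specific factors (mycla, znfl2a and ID3), 1 of 99 signalling genes (map2k4b) and 1 of 52 energy metabolism genes (COX5B). None of the 47 cytoskeleton and adhesion genes, 79 cell cycle genes, 108 membrane trafficking genes, 41 chaperone genes and 20 maternal mRNAs met it. These shares stand beside the 0.968% of all maternally present genes, and the rule that chose the members fixes them.

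Translation and mRNA decay gave 4 members, of which 3 are described. PNRC2 (ENSDARG00000053291) encodes an adaptor that brings decay factors to the decapping machinery. Labelled PNRC2 RNA was at 25.2 and 11.7 FPKM at 128-cell, 80.2 and 25.9 FPKM at 256-cell and 175 and 59.3 FPKM at 512-cell, against 9.42, 5.79 and 5.30 FPKM unlabelled. Both labelled PNRC2 libraries exceeded the unlabelled one at each stage. eef1a1l1 (ENSDARG00000020850), a gene of the elongation factor that carries aminoacyl-tRNA to the ribosome, had 49.3 and 13.5 FPKM at 128-cell, 87.6 and 19.9 FPKM at 256-cell and 320 and 84.8 FPKM at 512-cell in labelled RNA, against 32.6, 18.0 and 11.9 FPKM unlabelled. Near-identical copies of elongation factor genes could share reads, so the values of eef1a1l1 are uncertain. NOCT (ENSDARG00000077726), a gene of the Ccr4-related protein nocturnin, had 1.04 and 0.340 FPKM at 128-cell, 7.36 and 1.86 FPKM at 256-cell and 12.1 and 3.79 FPKM at 512-cell in labelled RNA.

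Signalling genes gave 4 members, of which 3 are described. shisa2a (ENSDARG00000034138) belongs to a family whose frog and chick proteins hold back Wnt and Fgf receptors. Labelled shisa2a RNA was at 3.22 and 1.39 FPKM at 128-cell, 15.3 and 3.64 FPKM at 256-cell and 99.7 and 31.5 FPKM at 512-cell, against 2.22, 2.37 and 0.967 FPKM unlabelled. The shisa2a ratio of 512-cell to 128-cell FPKM, 31.0 and 22.6, was the highest of any member with an ordinary symbol when the lower replicate is taken. AMOTL2 (ENSDARG00000061923), an angiomotin-like gene of cell junctions, had 3.27 and 2.43 FPKM at 128-cell, 3.65 and 1.89 FPKM at 256-cell and 16.5 and 10.1 FPKM at 512-cell in labelled RNA. The AMOTL2 level was thus close to its 128-cell level at 256-cell in both replicates. map2k4b (ENSDARG00000077177), of a kinase upstream of Jnk, had 0.832 and 0.597 FPKM at 128-cell and 9.21 and 3.47 FPKM at 512-cell in labelled RNA. COX5B (ENSDARG00000015978), the single member from energy metabolism, encodes a nuclear subunit of respiratory complex IV and had 0.937 and 0.610 FPKM at 128-cell and 8.82 and 2.73 FPKM at 512-cell.

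The remaining 18 members have no symbol (13) or a clone-type symbol (5). ENSDARG00000077712 had the highest labelled level of these. In labelled RNA it was at 23.6 and 8.60 FPKM at 128-cell, 424 and 193 FPKM at 256-cell and 838 and 523 FPKM at 512-cell, against 0.642, 1.52 and 2.04 FPKM unlabelled. The labelled libraries exceeded the unlabelled ones by 36.8-fold and 13.4-fold at 128-cell already, and its unlabelled level was higher at each later stage, so its unlabelled mean of at least 1 FPKM rests on the later libraries. zgc:113424 (ENSDARG00000035680) had 13.4 and 9.67 FPKM at 128-cell, 74.0 and 42.0 FPKM at 256-cell and 192 and 148 FPKM at 512-cell in labelled RNA, against 7.80, 3.16 and 1.51 FPKM unlabelled. ENSDARG00000028514 had 3.87 and 4.42 FPKM at 128-cell, 21.4 and 16.7 FPKM at 256-cell and 89.7 and 61.0 FPKM at 512-cell in labelled RNA, against 15.3, 7.83 and 5.64 FPKM unlabelled. Its labelled level at 128-cell was 0.253 and 0.289 of the unlabelled level in the 2 replicates. ENSDARG00000077067 had 4.81 and 2.75 FPKM at 128-cell and 69.7 and 25.05 FPKM at 512-cell in labelled RNA. The other 14 of these genes are ENSDARG00000007628, ENSDARG00000035423, ENSDARG00000036496, ENSDARG00000038664, ENSDARG00000039641, ENSDARG00000039642, ENSDARG00000059748, ENSDARG00000068420, ENSDARG00000074631, ENSDARG00000075366, si:ch211-113a14.24, si:ch211-262h13.3, zgc:110216 and zgc:153116. They had labelled 512-cell levels between 2.25 FPKM (zgc:153116, replicate 2) and 77.7 FPKM (ENSDARG00000007628, replicate 1). ENSDARG00000059748 had uneven labelled 128-cell replicates, at 10.3 and 0.302 FPKM, against 36.7 and 22.4 FPKM at 512-cell. Its ratio of 74.0 in replicate 2, the highest finite one there, thus rests on a 128-cell value below 1 FPKM, and the ratio was 3.57 in replicate 1. In zgc:110216 the unlabelled level was 0.757, 1.35 and 2.26 FPKM in stage order, so it was higher at the later stages, unlike that of most members.

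**Figure D2:**
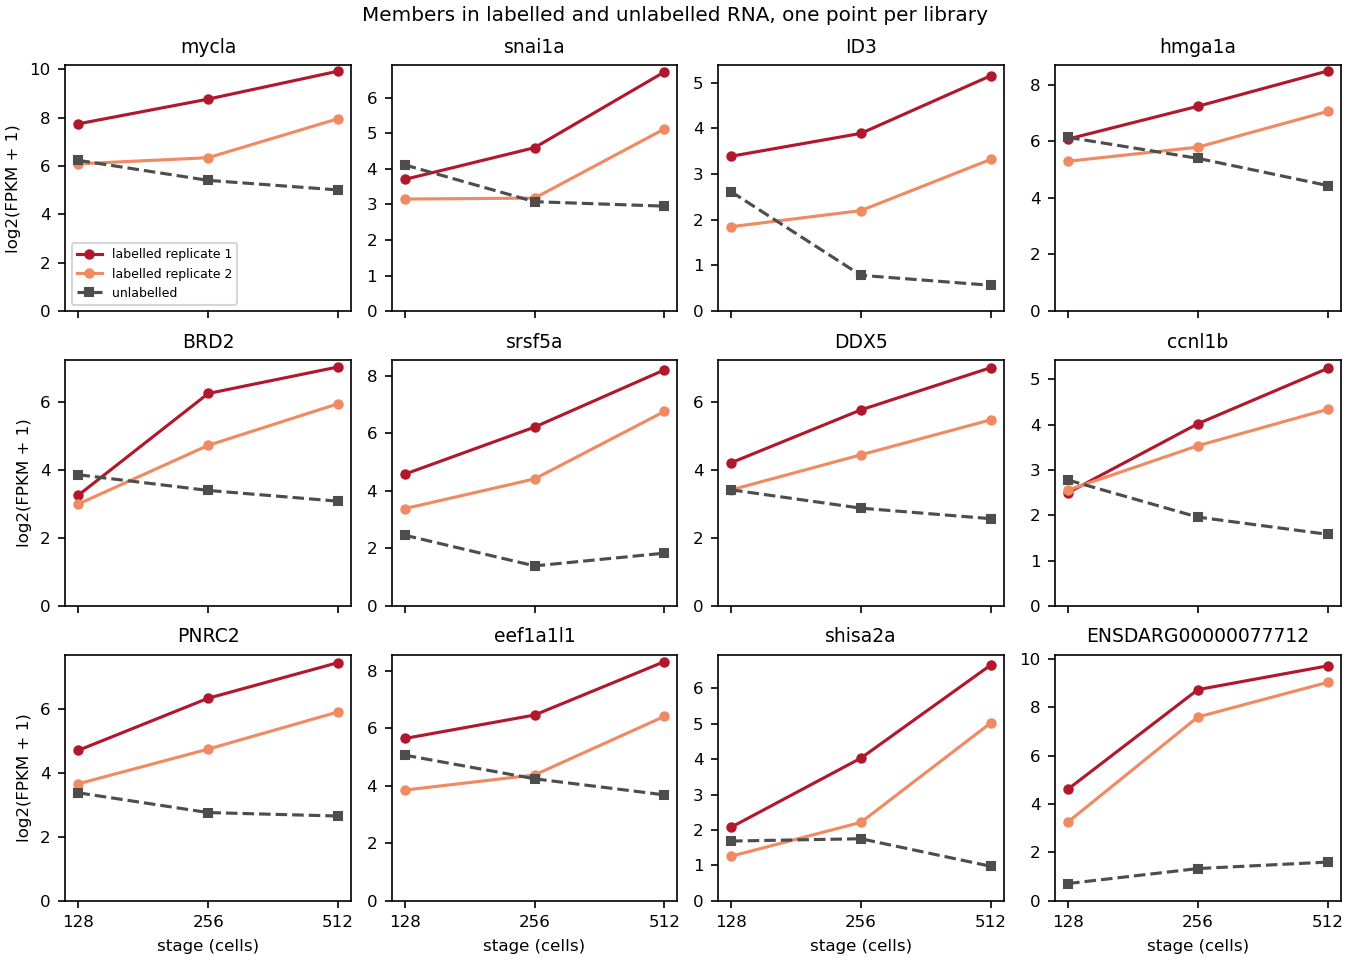
Level of 12 members as log2(FPKM + 1) on the y axis, which starts at 0 in each panel, against stage in cells on the x axis; each point is 1 library, with labelled replicates 1 and 2 as solid lines and unlabelled RNA as a dashed line. In hmga1a and BRD2 the unlabelled point lies at or above the labelled ones at 128-cell and below both at 512-cell, while in srsf5a and ENSDARG00000077712 it lies below them at each stage.

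Without label the members did not show the labelled pattern on the deposited scale. The unlabelled 512-cell FPKM was below the unlabelled 128-cell FPKM in 39 of 43 genes, against 98.6% of maternally present genes, and the median ratio was 0.421 for the members and 0.334 for maternally present genes. The level was at least 3-fold lower at 512-cell in 11 members, against 49.8% of maternally present genes. It was at least 3-fold higher in 2 members (ENSDARG00000077712 and ENSDARG00000039642), against 0.0593%. ENSDARG00000077712 was at 0.642, 1.52 and 2.04 FPKM unlabelled in stage order, and ENSDARG00000039642 at 1.49, 0 and 4.72 FPKM. Both reached the limit on the unlabelled mean through later libraries, so that limit favours their difference, which is no independent result. With size factors, which take out the lower level of the later unlabelled libraries, the unlabelled 512-cell level was below the 128-cell level in 8 members, against 45.5%, and the median ratio was 1.32 for the members and 1.05 for maternally present genes. It was then at least 3-fold higher in 5 members, against 1.66%, and at least 3-fold lower in 2, against 1.98%. The direction of the members' unlabelled course thus depends on the scaling, and with 1 unlabelled library per stage it has no replicate check. In the unlabelled 128-cell library, 41 of 43 members had at least 1 FPKM, against 5054 of 5062 maternally present genes. At 512-cell 29 members did, against 3465 maternally present genes, and 25 members did in all 3 unlabelled libraries. The limit on the unlabelled mean drives these counts.

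Ranks within a library do not depend on such scaling. The median percentile of the members' FPKM among all genes of the labelled replicates came to 61.4 and 62.1 at 128-cell, 84.6 and 76.5 at 256-cell and 94.2 and 93.4 at 512-cell. Without label the medians were 54.5, 60.7 and 66.6 in stage order. Maternally present genes had median percentiles between 62.6 and 67.0 in all 6 labelled libraries and medians of 67.0, 66.9 and 66.7 in the unlabelled ones. The members' unlabelled median rank was thus higher at each later stage while that of maternally present genes was about level, with 1 library per stage and no replicate check. At 128-cell the members' median rank lay below that of maternally present genes in both kinds of library, with the wider gap in unlabelled RNA. Their labelled ranks at 128-cell and 512-cell follow from the rule, which took its ratio from those libraries.

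**Figure D3:**
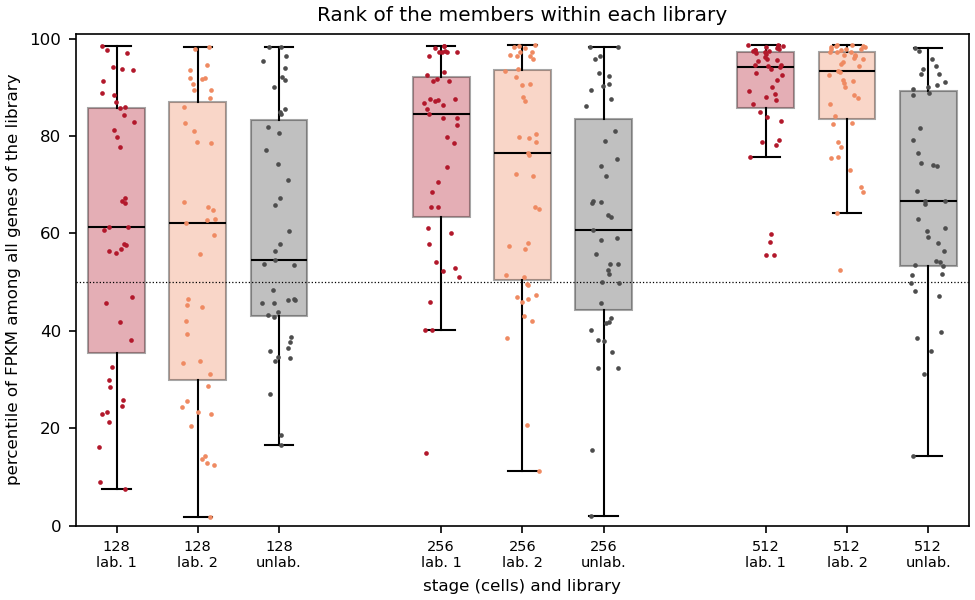
Percentile of each of the 43 members' FPKM among all genes of a library (y axis) in the 9 libraries (x axis: stage in cells, labelled replicates 1 and 2, then unlabelled). Points are genes, boxes span the quartiles with the median as a line, whiskers reach the farthest gene within 1.5 box lengths, and the dotted line marks the median gene. The labelled medians are 61.4 and 62.1 at 128-cell and 94.2 and 93.4 at 512-cell, and the unlabelled medians are 54.5, 60.7 and 66.6 in stage order.

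The 256-cell stage was not used by the rule for labelled RNA, and it showed where each course stood midway. On the log2(FPKM + 1) scale, the 256-cell value lay at a median of 0.482 of the way between the 128-cell and the 512-cell value in replicate 1 and 0.283 in replicate 2, where 0.5 is the midpoint. In 36 of 43 genes it lay between them in both replicates. Genes past the midpoint in both replicates numbered 9, among them BRD2 (0.793 and 0.585), ENSDARG00000077712 (0.807 and 0.752), NOCT (0.758 and 0.594) and COX5B (0.728 and 0.897). Genes short of it in both replicates numbered 21, among them snai1a (0.295 and 0.0134), AMOTL2 (0.0618 and -0.147) and eef1a1l1 (0.305 and 0.205). These values share the 128-cell and 512-cell libraries with the rule and are a description. By percentile rank, a measure added after seeing the data, the place lay past the midpoint (given in the closing section). Whether the members stood short of the midpoint thus depends on the scale.

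At the 256-cell stage, ENSDARG00000077712 was higher in labelled than in unlabelled RNA, and it was the 1 of 43 members that passed the test. The comparison asks whether the label enriched these RNAs at a stage that the stage ratio did not use. Only the difference itself comes from the 256-cell libraries alone. The SE and p-value also rest on the spread between labelled replicates of the other stages, which are the stage-ratio libraries. They are thus not independent of the rule. The unlabelled 256-cell library also entered the rule, through the unlabelled mean. By limma on log2(FPKM + 1), ENSDARG00000077712 was higher by a log2 of 6.83 ± 1.11 (SE, 2 labelled and 1 unlabelled library; adjusted p = 0.0203). Fitted by limma on the 256-cell libraries alone, which leaves out the stage-ratio libraries, it had an adjusted p of 0.0572 and 0 of 41 tested members passed. That fit called 67 of 6017 genes higher, and 5 of 4790 maternally present genes. With replicate number as a block, which takes out the gap between labelled replicates 1 and 2 and counts the unlabelled libraries as replicate 1, 32 members were higher by limma and 0 lower, against 45.6% higher and 1.33% lower over all genes and 45.8% and 0.772% over maternally present genes. With size factors and the block, a fit chosen after seeing the data, 19 members were higher and 1 lower, against 15.2% higher and 9.64% lower over all genes and 12.9% and 11.4% over maternally present genes. What the numbers share is not stated for the unlabelled libraries. Over all 7697 tested genes 87 (1.13%) were higher and 0 lower, and over 5051 tested maternally present genes 10 (0.198%) were higher. At an unadjusted p under 0.05, 8 members were higher and 0 lower, against 326 of all genes, of which 301 were higher. The fitted median difference was a log2 of 1.12 over the members, 0.43 over all genes and 0.37 over maternally present genes, so that the members lay 0.69 above all genes. Without labelled 256-cell replicate 1 the members' median was 0.37 (0.32 above all genes), and without labelled 256-cell replicate 2 it was 2.07 (1.27 above all genes). Of the members, 36 lay above the all-gene median, and all 43 had passed the filter of at least 1 FPKM in at least 2 libraries.

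In the main limma fit (deposited scale, mean-variance trend, no replicate block) the rest of the members did not pass. The spread between replicates was wide, with a median SE of 0.92 over the members. srsf5a had 3.92 ± 1.14 (adjusted p = 0.305), zgc:113424 had 3.77 ± 0.95 (adjusted p = 0.146) and ENSDARG00000077067 had 2.64 ± 0.85 (adjusted p = 0.482), from the same limma fit. These 3 passed with size factors, at 3.46 ± 0.46 (adjusted p = 0.0238), 3.26 ± 0.41 (adjusted p = 0.0181) and 2.25 ± 0.29 (adjusted p = 0.0232) by limma. With size factors 4 of 43 members were higher and 0 lower, against 1.35% higher and 0.0676% lower over all genes and 0.138% higher and 0.0791% lower over maternally present genes. ENSDARG00000039642, listed at 0 in unlabelled 256-cell RNA, had a fitted difference of 2.67 ± 0.78 (adjusted p = 0.305 by limma). After srsf5a, the largest differences among ordinary symbols on the deposited scale were those of PNRC2 (2.78 ± 1.14), ID3 (2.26 ± 1.05), DDX5 (2.23 ± 1.08), mycla (2.15 ± 1.5), BRD2 (2.09 ± 1.05), ccnl1b (1.82 ± 0.80) and lmo4a (1.61 ± 0.96), each with an adjusted p of 0.950 by limma. The smallest among ordinary symbols were those of AMOTL2 (0.14 ± 0.68), rsrp1 (0.40 ± 0.82), h1l1 (0.54 ± 0.77) and rbmx (0.59 ± 0.69). With size factors those of AMOTL2 and rsrp1 turned to -0.30 and -0.08. Over all 43 members the lowest were ENSDARG00000068420 (-0.71 ± 0.59, and -1.155 with size factors) and si:ch211-113a14.24 (-0.13 ± 0.92). The difference was above 0 in 41 members, against 6129 of 7697 tested genes. With size factors it was above 0 in 36, against 3871 of 7393. Fits with 1 labelled library left out called more members in some cases, and more of all genes in each case, so the added calls are not particular to the members. Without either labelled 512-cell library the members' median difference was still a log2 of 1.12.

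Both labelled 256-cell libraries lay above the unlabelled one in 32 of 43 members (74.4%), against 53.6% of all tested genes and 47.4% of maternally present genes. With size factors this held for 28 members (65.1%), against 40.5% and 32.8%. By role it held for 6 of 7 RNA processing genes (5 with size factors), 4 of 4 chromatin genes (3), 4 of 5 transcription factor genes (4), 4 of 4 translation and decay genes (3), 3 of 4 signalling genes (3), COX5B (also with size factors), 4 of 5 clone-type symbols (4) and 6 of 13 genes with no symbol (5). At 128-cell both labelled libraries lay above the unlabelled one in 6 of 43 members, against 11.8% of maternally present genes, and in 11 with size factors, against 32.8%. The rule favours low labelled 128-cell values, so these counts are no independent baseline. At 512-cell, where the rule selected high labelled values, both labelled libraries lay above the unlabelled one in 43 members, against 69.5%, and in 42 with size factors, against 35.1%. Replicate 1 lay above replicate 2 in 41 of 43 members at 256-cell. Over all genes the median FPKM of these 2 libraries was 3.21 and 1.49, so the gap is one of whole libraries, and it is part of the SE.

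**Figure D4:**
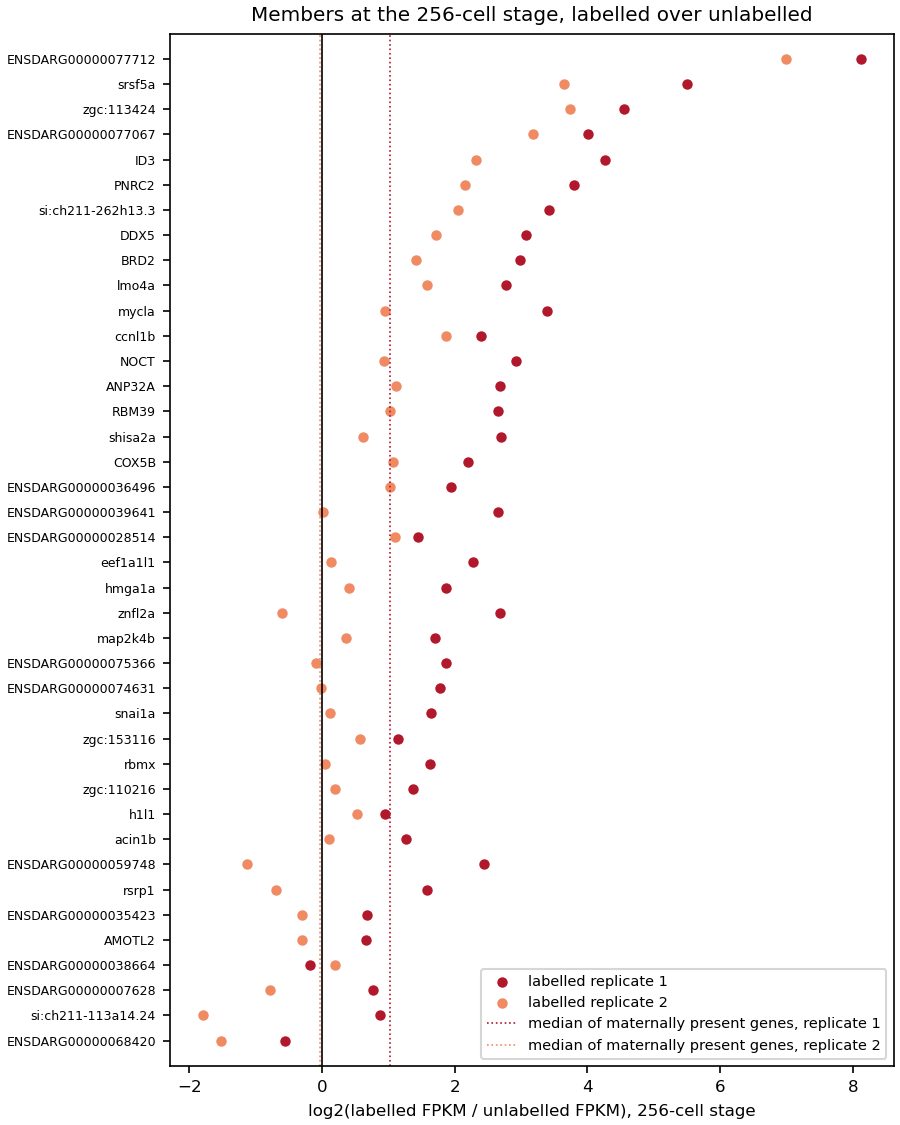
Log2 ratio of labelled to unlabelled FPKM at the 256-cell stage (x axis) for 40 members with an unlabelled value above 0 (y axis, ordered by the sum of both ratios), with 1 point per labelled replicate and dotted lines at the medians of maternally present genes (ratios of 2.03 in replicate 1 and 0.983 in replicate 2). ENSDARG00000077712, srsf5a and zgc:113424 lie farthest to the right, and replicate 1 lies right of replicate 2 in nearly all genes.

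The lists of other genes gave few calls at 256-cell by limma. Of 143 tested splicing and RNA-binding genes 0 passed, with 8 higher at an unadjusted p under 0.05 and 1, srsf5a, passing with size factors. The list's median log2 difference lay 0.46 above that of all genes, and 0.55 above it for its maternally present genes. Outside the members, HNRNPL, a gene of another regulator of splicing, had 2.21 ± 0.77 (adjusted p = 0.641) in the limma fit. Translation factor genes had 0 of 56 passing, also with size factors and at an unadjusted p under 0.05, with a median 0.38 above all genes. The maternal mRNA list gave the same counts of 0 for its 24 genes, with a median 0.46 above all genes. Of 82 chromatin regulators 0 passed under each of the 3 readings, and of 58 general factors of RNA polymerase II 0 passed in the limma fit and with size factors, with 1 higher at an unadjusted p under 0.05; their medians lay 0.08 and 0.02 above all genes. Sequence-specific factors had 5 higher of 177, and 9 with size factors. Among them, znf1089 (5.41 ± 0.81, adjusted p = 0.0139 by limma) and irx7 (5.67 ± 0.96, adjusted p = 0.0221) are not maternally present genes by the rule. Early zygotic genes had 4 higher of 22, and 8 with size factors, with a median 2.69 above all genes. This list overlaps with that of the sequence-specific factors, and irx7 and her5 are counted as higher in both. Signalling genes had 1 of 123 higher (FGF20), and 2 with size factors. In the cytoskeleton (62 tested), cell cycle (95), ubiquitin (176), energy metabolism (76), membrane trafficking (150) and chaperone (60) lists 0 passed in the limma fit, with 3, 2, 0, 3, 2 and 1 genes higher at an unadjusted p under 0.05. With size factors 2 cytoskeleton genes and 1 energy metabolism gene were higher. The medians of these lists lay between -0.01 and 0.16 relative to all genes, and the single tested differentiated-tissue gene, actc1a, was at -0.10.

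The authors' deposited table of 1 value per stage over the labelled libraries lists 41 of the 43 members. In the authors' deposited table the ratio of 512-cell to 128-cell FPKM had a median of 14.8 over these 41, with a range of 5.78 to 89.0. Its median over the 5018 maternally present genes it lists was 1.98, so its scale between stages differs from that of the per-library table. The scaling behind it is not given in the sources used here. It rests on the same labelled libraries that the rule used to choose the members, so the members' high ratios there are no independent check.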

How the data were processed

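RNA of zebrafish embryos was sequenced in 9 libraries (6 labelled, 3 unlabelled), amplified with 15 PCR cycles per the labels' protocols. The authors deposited FPKM values, made with CASAVA 1.7, TopHat 1.3.3 and Cufflinks 2.0.2 on Zv9 per the submitters' processing notes. The annotation version, filters, multi-mapped reads, strand handling and scaling between libraries are not given in the sources used here; a transcript table was not used here. Symbols came from a table of gene IDs, which names 7028 of 8969 genes; no sequence or annotation of the build was used here.

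Values were taken as log2(FPKM + 1), pseudocount 1, for genes that reached 1 FPKM in 2 or more libraries. The 256-cell test used limma 3.58.1 in R 4.3.3, with a mean-variance trend and means of 6 groups over all 9 libraries (3 residual degrees of freedom), two-sided, Benjamini-Hochberg adjusted over all tested genes, threshold 0.05. The single unlabelled library is assumed to vary like the labelled replicates. The fit was tested on simulated data with no shift between libraries and independent noise in each library. That simulation does not cover the gap between labelled replicates 1 and 2, so it does not check the SE under that gap. Fold differences on this scale understate those of low genes. Values were recomputed with other pseudocounts, filters, size factors, single libraries left out and replicate number as a block. Tables and figures were made with Python 3.11.15, pandas 2.3.3 and matplotlib 3.10.9.

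The members, lists and roles were chosen with earlier results of these data known. Symbols were named by highest unlabelled FPKM (10 genes), largest lower stage ratio of FPKM + 1 (10), largest (8) and smallest (4) 256-cell differences, passing the test, nearness to the 3-fold limit, or smallest adjusted p in a list (4 per list); the remaining members are named for completeness, except 2 that are counted but not reported here.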

Additional observations from a re-analysis of the deposited data

How the results depend on the processing

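The number of genes found by the rule depended on each limit: 97 genes with 2-fold, 28 with 4-fold, 76 and 24 with an unlabelled mean of at least 0.5 and 2 FPKM, 28 with the ratio of FPKM + 1, and 118 with all gene IDs, the last chosen after seeing the data. With size factors it found 68, of which 41 are among the 43 (acin1b and ENSDARG00000039641 are lost). Asking 1 replicate alone it found between 59 and 143. At 256-cell by limma, 1 member was higher: 4 with size factors, 2 without the trend, 0 with the 256-cell libraries alone, where ENSDARG00000077712 had an adjusted p of 0.0572 (4.19e-07 to 0.0286 under the other alternatives), and 1 to 3 with 1 labelled library left out. Over all genes 87 were higher: 157 with pseudocount 0.1, and 112 to 241 with 1 labelled library left out (141 and 139 without labelled 128-cell replicates 1 and 2, 160 and 168 without labelled 512-cell replicates 1 and 2, 241 without labelled 256-cell replicate 2); genes lower numbered 5 with size factors and 0 to 10 with 1 labelled library left out. Without the trend, 90 of 7697 genes and 13 of 5051 maternally present genes were higher by limma. With the 256-cell libraries alone the counts were 67 of 6017 and 5 of 4790. Deviations of same-numbered labelled libraries from their stage means correlated across genes at 0.660 to 0.762 (0.669 to 0.747 with size factors). What a replicate number shares is not stated, and the unlabelled libraries are all numbered 1, so pairing between labelled and unlabelled libraries is not established, although same-numbered labelled libraries deviated together; with the replicate block 32 members and 3511 genes were higher and 102 genes lower, and with size factors and the replicate block, added after seeing the data, 19 members higher and 1 lower, with 1122 genes higher and 713 lower. The place of the 256-cell value averaged 0.382 over both replicates (0.283 to 0.482 with 1 replicate left out) and was 0.591 by percentile rank, added after seeing the data. The unlabelled ratio of 512-cell to 128-cell moved to 1.32 with size factors, with 2 members at least 3-fold lower and 5 at least 3-fold higher. The causes were not tested. Unknown depth limits every value near or below 1 FPKM.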
